A study of Mus musculus with 24 samples.

Results

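The regions described here are stretches of the mouse genome whose lamin A/C association changed one way in LAP2alpha-deficient cells after 12 cycles of sonication and the opposite way after 30 cycles. They were read from domains called by EDD, a caller of broad enriched domains, in chromatin immunoprecipitation sequencing (ChIP-seq) of immortalized murine dermal fibroblasts, a cultured line from mouse skin. A domain present in wild-type cells alone (WT, Lap2alpha +/+) was taken as lost in the deficient cells, and one present in the deficient cells alone (KO, Lap2alpha -/-) as gained. Class A was lost at 12 cycles and gained at 30 cycles. Class B was gained at 12 cycles and lost at 30 cycles. Both classes were taken separately for N18 and 3A6, the antibodies to the N terminus and to the C-terminal immunoglobulin fold of lamin A/C. In all, 411 stretches of at least 11 kb met the rule, among 2389 domains in the 8 lamin A/C libraries and 3486 in all 12 libraries analysed. With N18 there were 147 stretches of class A over 72.4 Mb, or 2.74% of the genome, and 50 of class B over 14.01 Mb, or 0.531%. With 3A6 there were 134 of class A over 40.9 Mb, or 1.55%, and 80 of class B over 38.5 Mb, or 1.46%. The members were thus chosen by measured values, the presence or absence of a domain in each of these 8 libraries, and their sizes are given without a test. Domains covered 15.3%, 16%, 9.04% and 17.9% of the genome with N18 (WT and KO at 12 cycles, then at 30 cycles), and 15.1%, 14.5%, 22.1% and 18.9% with 3A6.

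Lamin A and C are splice forms of one gene and, unlike the B-type lamins, occur in the nuclear interior as well as in the lamina at the nuclear periphery. LAP2alpha, an isoform encoded by Tmpo, lacks a membrane anchor and binds A-type lamins in the interior. Lamina-associated domains, the stretches that contact the lamina, are typically long, poor in genes and rich in A+T, and lamin B1 is a usual mark of them. Longer sonication shears compact chromatin further and so brings more of it into the range of fragments that can be sequenced.

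Each of the 8 lamin A/C groups (2 antibodies, WT or KO, 12 or 30 cycles) was a single library, as were LAP2alpha and lamin B1 of WT at each sonication, so no spread between replicates exists. The labels name one immortalized culture per genotype, so the deletion cannot be told apart from other differences between the cultures. At each sonication the lamin A/C libraries of both genotypes came from one sequencing lane, whereas the 12- and 30-cycle ones ran on different flow cells, so sonication and sequencing run cannot be told apart either. Lamin A/C and LAP2alpha of the same genotype and sonication were called against a shared input. The labels list no separate input for lamin B1 of WT either. The islands called by SICER, a caller of shorter enriched regions, held 3989494 to 13601739 reads per library, a sum that depends on the calling and is not the sequencing depth. Island coverage of whole chromosomes differed by over 10 percentage points between WT and KO on 6 chromosomes with N18 (3, 13, 16, 18, 19 and X) and on 10 with 3A6 (3, 6, 8, 13, 15, 16, 17, 18, 19 and X). Leaving those chromosomes out, class A kept 64.4 Mb with N18 and 35.5 Mb with 3A6, while class B kept 9.05 Mb and 10.8 Mb.

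The base composition of the stretches is shown first by 200 bases from the centre of the longest stretch of each class (mm9, plus strand), with each CG dinucleotide, the site of DNA methylation, in capitals. The N18 class A window (chr5:137268901-137269100) lay in an intron of Emid2 and held 3 CG. The other windows were intergenic, with 0 CG in N18 class B (chr3:33219901-33220100), 2 in 3A6 class A (chr5:115175401-115175600) and 0 in 3A6 class B (chr16:60670401-60670600). G+C made up 54.0%, 44.5%, 58.0% and 36.5% of these windows in that order.
N18 class A: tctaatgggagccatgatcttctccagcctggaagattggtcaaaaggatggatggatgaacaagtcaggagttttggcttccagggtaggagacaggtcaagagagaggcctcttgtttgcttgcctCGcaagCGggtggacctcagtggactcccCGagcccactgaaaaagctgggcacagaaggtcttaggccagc
N18 class B: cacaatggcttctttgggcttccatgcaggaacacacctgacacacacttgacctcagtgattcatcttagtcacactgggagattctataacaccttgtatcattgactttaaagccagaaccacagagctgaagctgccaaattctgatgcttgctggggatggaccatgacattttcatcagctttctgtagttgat
3A6 class A: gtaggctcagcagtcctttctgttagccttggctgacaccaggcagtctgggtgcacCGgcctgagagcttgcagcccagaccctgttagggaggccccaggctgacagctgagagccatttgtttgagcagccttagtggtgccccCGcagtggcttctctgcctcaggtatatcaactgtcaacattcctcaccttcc
3A6 class B: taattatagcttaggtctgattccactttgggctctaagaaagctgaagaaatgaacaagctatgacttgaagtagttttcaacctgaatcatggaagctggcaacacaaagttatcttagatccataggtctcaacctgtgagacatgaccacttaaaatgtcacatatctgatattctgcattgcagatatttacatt

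Promoters are shown by the 250 bases before the start of 3 genes. Col13a1, which encodes a membrane-bound collagen, lay in the longest stretch of class A with both antibodies (chr10:61441857-61442106, minus strand), and Gm16478, a predicted gene, in the longest of class B with both (chr7:58425637-58425886, plus strand). Pex5l, which encodes a regulator of neuronal HCN channels, lay in the longest N18 class B stretch (chr3:33042170-33042419, minus strand) and is shown because it goes against the general composition of class B. CG is again in capitals, and the windows held 24, 0 and 30 in that order. The window of Cyp3a13, in the longest N18 class A stretch, also ran against its class with 1 CG, while that of Cit in 3A6 class A held 14 and that of Gabrr3 in 3A6 class B held 4.
Col13a1: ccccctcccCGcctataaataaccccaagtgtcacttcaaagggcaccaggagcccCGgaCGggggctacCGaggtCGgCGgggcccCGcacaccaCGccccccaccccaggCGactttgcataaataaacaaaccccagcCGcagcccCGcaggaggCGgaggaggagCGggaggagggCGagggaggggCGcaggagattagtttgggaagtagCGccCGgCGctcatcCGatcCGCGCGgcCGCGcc
Gm16478: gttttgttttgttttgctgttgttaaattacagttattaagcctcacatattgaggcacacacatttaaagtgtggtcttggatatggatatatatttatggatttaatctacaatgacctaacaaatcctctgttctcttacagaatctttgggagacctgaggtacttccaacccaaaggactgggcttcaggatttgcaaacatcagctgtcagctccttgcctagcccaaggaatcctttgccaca
Pex5l: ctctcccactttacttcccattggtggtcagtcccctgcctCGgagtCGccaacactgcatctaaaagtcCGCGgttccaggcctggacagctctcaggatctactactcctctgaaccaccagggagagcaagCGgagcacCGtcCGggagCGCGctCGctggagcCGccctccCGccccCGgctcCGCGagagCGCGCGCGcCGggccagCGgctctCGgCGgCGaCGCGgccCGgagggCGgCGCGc

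The shares of lost and gained DNA that turned up in the opposite column at 30 cycles differed between the antibodies and between loss and gain. With N18, KO lost 157 Mb at 12 cycles, and 46.1% of it was gained at 30 cycles, against 2.11% that was lost there too. The 30-cycle gain covered 11.6% of the whole genome. With 3A6, KO lost 212 Mb, of which 19.3% was gained at 30 cycles and 2.27% was lost again, while 76.6% was in neither genotype's domains. The 30-cycle gain of 3A6 covered 9.12% of the genome. DNA that both genotypes held at 12 cycles was gained at 30 cycles too. With N18, 119 Mb of it was gained, 23.8 Mb was in neither genotype's domains, 99.0 Mb stayed in both and 5.05 Mb was lost. With 3A6 these lengths were 85.1, 47.7, 43.3 and 10.6 Mb. A 30-cycle gain was thus not particular to DNA lost at 12 cycles. Of the 12-cycle gain, N18 had 175 Mb with 8.01% lost at 30 cycles (genome 2.73%) and 3A6 had 197 Mb with 19.5% lost (genome 12.2%). More of that DNA was gained at both sonications than changed sides with N18 (23.2%), and somewhat less with 3A6 (16.5%). These shares are used by the rule and are given as descriptions, without a test.

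**Figure D1:**
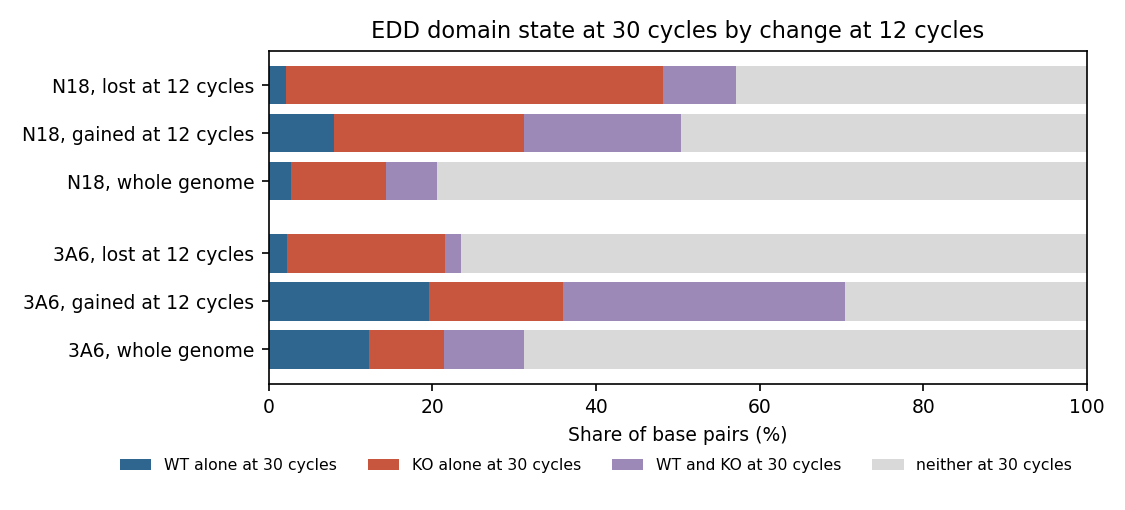
Bars give the share of base pairs (x axis, %) in each domain state at 30 cycles, for DNA lost or gained in KO at 12 cycles and for the whole genome, with each antibody. The segment of KO alone reaches 46.1% of the N18 loss and 19.3% of the 3A6 loss, and the segment of WT alone 8.01% of the N18 gain and 19.5% of the 3A6 gain.

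Class A and class B stretches differed in how far they lay in domains of LAP2alpha and lamin B1. The rule did not use these libraries, but the labels list no inputs for them apart from those of lamin A/C in WT. Of N18 class A, 91.6% lay in 12-cycle LAP2alpha domains and 0.714% in 30-cycle lamin B1 domains. Of N18 class B, 16.3% lay in the former and 87.0% in the latter. With 3A6 the LAP2alpha shares were 88.96% in class A and 0.657% in class B, and the lamin B1 shares 9.51% and 94.97%. Over the genome, 12-cycle LAP2alpha domains covered 19.2% and 30-cycle lamin B1 domains 36.2%. With both antibodies class A thus lay far above the genome in LAP2alpha and far below it in lamin B1. Class B lay far above it in lamin B1. In LAP2alpha 3A6 class B lay far below the genome, whereas N18 class B was near it. No test of this difference was made, since each library is single and the stretches are neighbours within shared domains.

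Part of that contrast was already present in the domains from which the classes were drawn. Whole N18 domains of WT at 12 cycles lay 90.0% in LAP2alpha domains and 19.1% in lamin B1 domains, and those of KO at 30 cycles 74.0% and 23.0%. Class A of N18 was near the former in LAP2alpha and far below both in lamin B1. The DNA that N18 lost at 12 cycles without being gained at 30 cycles held 71.4% and 17.1%. For class B, the N18 domains of KO at 12 cycles had a lamin B1 share of 29.4% and those of WT at 30 cycles 62.6%, against 87.0% in the class and 30.8% in the rest of the 12-cycle gain. Their LAP2alpha shares were 66.0% and 57.7%, far above the 16.3% of the class. The rest of the N18 30-cycle loss was closer to class B, with 78.5% in lamin B1 domains and 16.1% in LAP2alpha domains. With 3A6 the class B value of 94.97% was close to that of its 30-cycle WT domains, 94.88%, and the rest of the 12-cycle gain had 69.6%. The rest of the 3A6 30-cycle loss, at 93.4% in lamin B1 and 3.09% in LAP2alpha, was near class B. These shares were thus not particular to class B. The 3A6 class A and the rest of its 12-cycle loss had close values, at 88.96% and 84.1% in LAP2alpha and 9.51% and 10.3% in lamin B1. The 3A6 domains of KO at 30 cycles, from which that class was also drawn, had 32.9% and 70.2%.

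**Figure D2:**
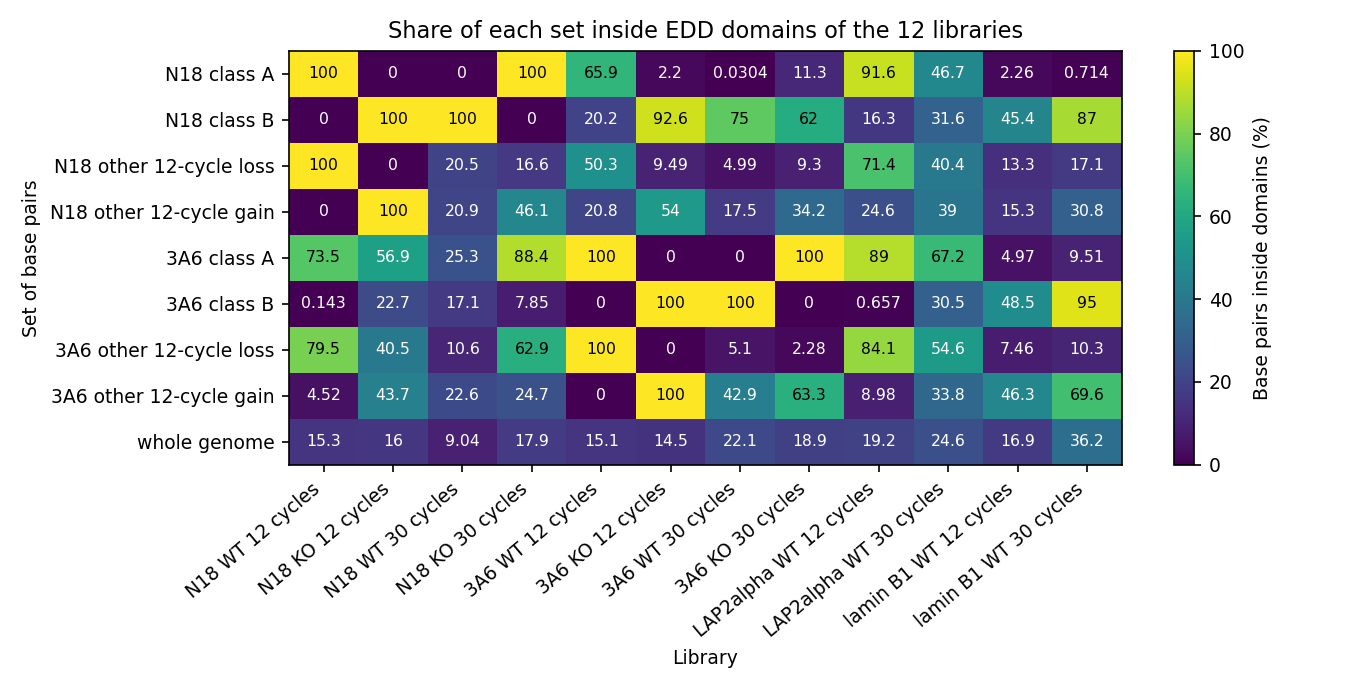
Each cell gives the share (%) of a set of base pairs (rows) inside the EDD domains of a library (columns), on a colour scale from 0 to 100%. The 0 and 100 cells of each class in its own antibody's columns are fixed by the rule, and class A has 91.6% and 88.96% under LAP2alpha at 12 cycles while class B has 87.0% and 94.97% under lamin B1 at 30 cycles.

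The contrast was smaller at the other sonication of each reference protein. In 30-cycle LAP2alpha domains (24.6% of the genome) lay 46.7% of class A and 31.6% of class B with N18, and 67.2% and 30.5% with 3A6. In 12-cycle lamin B1 domains (16.9% of the genome) lay 2.26% of class A and 45.4% of class B with N18, and 4.97% and 48.5% with 3A6. The directions were the same as before in all 4 pairs.

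Counted by stretch, 130 of 147 N18 class A stretches lay at least 50% in 12-cycle LAP2alpha domains, and 109 of 134 with 3A6. In class B this held for 11 of 50 and 4 of 80. At least 50% in 30-cycle lamin B1 domains lay 38 of 50 class B stretches with N18 and 73 of 80 with 3A6, against 5 of 147 and 18 of 134 in class A. Some stretches of each class therefore went against the others of it. On the 7 chromosomes with at least 0.1 Mb of both N18 classes, the lamin B1 share was lower in class A on 7 and the LAP2alpha share higher in class A on 6. Chromosome 8, with 0.110 Mb of class A, was the exception for LAP2alpha. With 3A6 both held on 4 of 4 such chromosomes.

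The classes also differed in base composition. G+C was 47.9% in class A and 40.8% in class B with N18, and 47.1% and 39.1% with 3A6, beside 41.8% in the genome. Such values were not particular to the classes. With N18 the rest of the 12-cycle loss had 45.4% and of the 30-cycle gain 46.9%, and with 3A6 46.8% and 43.1%. The rest of the 12-cycle gain and of the 30-cycle loss had 43.7% and 40.9% with N18, and 40.7% and 38.0% with 3A6. CG dinucleotides numbered 13.0 and 6.72 per kb with N18, and 12.5 and 5.85 with 3A6, beside 8.34 in the genome. In single stretches G+C ran from 42.2% to 54.5% in N18 class A (median 47.5%) and from 39.0% to 45.7% in N18 class B (median 41.1%). In 3A6 class A it ran from 40.2% to 53.5% (median 46.4%), and in 3A6 class B from 36.8% to 45.7% (median 39.6%). All 147 N18 class A stretches and 128 of 134 with 3A6 exceeded the genome mean, as did 45.03% of all 11-kb bins of the genome. In class B 18 of 50 and 11 of 80 exceeded it, so the ranges of the classes overlapped with both antibodies. G+C was higher in class A on every chromosome with at least 0.1 Mb of both, 7 of 7 with N18 and 4 of 4 with 3A6.

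**Figure D3:**
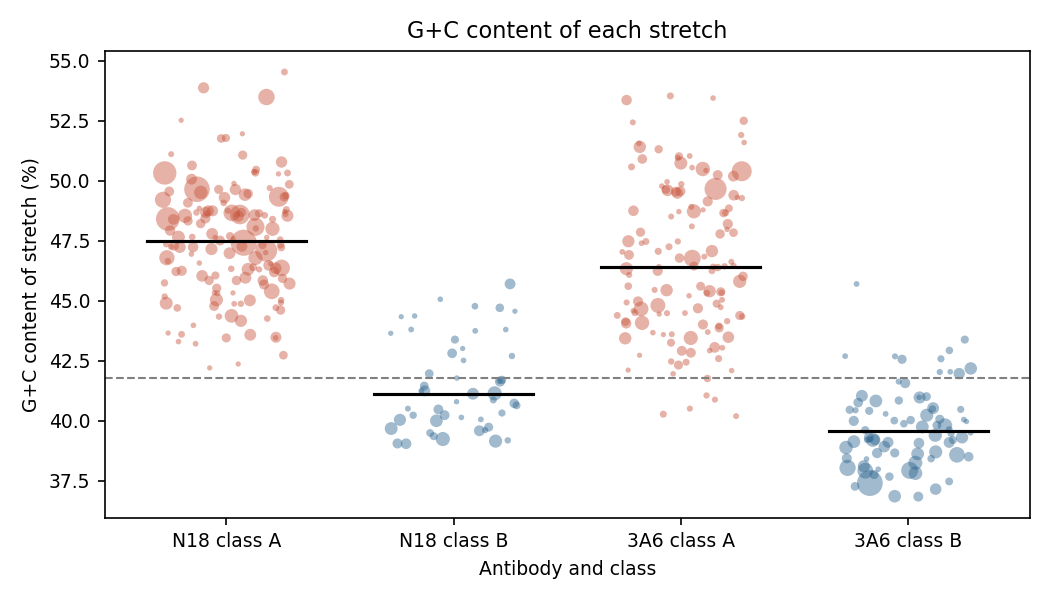
Each point is a stretch, with its G+C content (y axis, %) by antibody and class (x axis). Point area rises with stretch length, black lines are medians and the dashed line is the genome mean of 41.8%. All N18 class A points lie above that line, whereas most class B points of both antibodies lie below it.

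Gene content followed the same division. At least 50% inside N18 class A lay 1418 protein-coding genes (6.39% of 22208), or 19.6 per Mb, and inside N18 class B 52 (0.234%), or 3.71 per Mb. For 3A6 there were 566 genes (2.55%) at 13.8 per Mb in class A and 198 (0.892%) at 5.14 per Mb in class B. The genome held 8.42 per Mb. The rest of the 12-cycle loss held 14.5 per Mb with N18 and 16.6 with 3A6, the latter above its class A. The rest of the 30-cycle gain held 17.1 and 7.06 per Mb. In the rest of the 12-cycle gain there were 10.2 and 5.72 per Mb, and in that of the 30-cycle loss 5.80 and 3.78. No gene lay in 31 of 147 and 41 of 134 class A stretches, or in 30 of 50 and 33 of 80 class B stretches. At least 10 CG in the 250 bases before the start, a mark of CpG-rich promoters, were found for 795 of the 1418 genes in N18 class A (56.1%) and 324 of 566 in 3A6 class A (57.2%). In class B the numbers were 9 of 52 (17.3%) and 28 of 198 (14.1%). Of all protein-coding genes 47.0% had such a window. In the rest of the 12-cycle loss 54.7% (N18) and 54.6% (3A6) had one, close to class A. In the rest of the 30-cycle loss 21.4% and 13.3% had one, close to class B.

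The longest N18 class A stretch, chr5:135377001-139161000, spanned 3.78 Mb with 112 genes, among them Cyp3a13, a drug-metabolizing cytochrome P450, and the zinc finger genes Zfp157, Zfp113 and Zfp68. It lay whole in the 12-cycle domains of 3A6 WT and of LAP2alpha and outside both lamin B1 libraries. 3A6 KO at 30 cycles covered 0.291% of it, so the 30-cycle gain there was a call of N18. The next, chr2:30426001-34034000 (3.61 Mb, 67 genes), held Rpl12, and chr17:27676001-30767000 (3.09 Mb, 58 genes) held Rps10 and Rpl10a, all genes of ribosomal proteins. Both lay whole in 12-cycle LAP2alpha domains and outside lamin B1 domains.

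The longest 3A6 class A stretch, chr5:113850001-116501000, spanned 2.65 Mb with 65 genes, among them Cit, which encodes citron kinase, an enzyme of cytokinesis. N18 held it whole in WT at 12 cycles, in KO at 12 cycles and in KO at 30 cycles, so the 12-cycle loss there was a call of 3A6. The same was true of chr5:139150001-141306000 (2.16 Mb, 37 genes), which held Sun1, the gene of an inner nuclear membrane protein that binds lamin A and links it to the cytoskeleton. N18 covered 100% of it in WT and 99.5% in KO at 12 cycles, and 0% in WT and 100% in KO at 30 cycles. It held likewise for chr8:10318001-11803000 (1.49 Mb, 12 genes) with Col4a1 and Col4a2, the main chains of basement membrane collagen.

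The longest N18 class B stretch, chr3:32714001-33726000 (1.01 Mb), held 3 genes, among them Pex5l and Usp13, a deubiquitinase gene. Lamin B1 domains covered 0% of it at 12 cycles and 81.5% at 30 cycles, and 3A6 covered 0% in WT and 100% in KO at 12 cycles. At 30 cycles 3A6 covered 90.2% in WT and 77.2% in KO. The next, chr8:28776001-29777000 (1.00 Mb), held no gene and lay 89.01% and 100% in the lamin B1 domains of 12 and 30 cycles. The last of the 3, chr1:131461001-132308000, with most of Thsd7b, differed from the others, since all 4 libraries of 3A6 and both libraries of LAP2alpha and of lamin B1 covered it whole.

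The longest 3A6 class B stretch, chr16:58839001-62502000, spanned 3.66 Mb with 28 genes, of which 22 encoded olfactory receptors, the odorant detectors of the nose, and another was Gabrr3, which encodes a GABA receptor subunit. Lamin B1 domains covered 33.9% of it at 12 cycles and 100% at 30 cycles, and no domain of N18 or LAP2alpha touched it. SICER islands covered 2.16% of it in 3A6 KO at 12 cycles and 0% in the other 3 libraries of 3A6. The next, chr1:103191001-104709000 (1.52 Mb), held no gene, and chr16:26917001-28292000 (1.38 Mb) held Ccdc50 and Ostn, a gene of a secreted bone and muscle peptide. Lamin B1 domains of 30 cycles covered both stretches whole.

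The classes were spread unevenly over the chromosomes. Chromosomes 17, 11 and 5 held 9.68, 8.20 and 8.14 Mb of N18 class A, 35.9% of it in all, and chromosomes 8, 3 and 7 held 55.4% of N18 class B. Chromosomes 5, 9 and 10 held 57.7% of 3A6 class A, with 12.8 Mb on chromosome 5 alone. Chromosomes 16, 1 and X held 66.4% of 3A6 class B, with 12.0, 7.93 and 5.64 Mb. Over 1 Mb of both classes lay on chromosomes 1 and 7 with N18 and on chromosome 12 with 3A6 (1.08 Mb of class A and 1.09 Mb of class B). Chromosome 16 took 31.1% of 3A6 class B. Domains of 3A6 covered 7.09% of chromosome 16 in WT and 33.9% in KO at 12 cycles, and 34.7% in WT and 0% in KO at 30 cycles. Its islands of 3A6 covered 0.855% in WT and 12.9% in KO at 12 cycles, and 0.321% and 0.0539% at 30 cycles. Coverage of the whole chromosome thus moved with the stretches in the domain calls of both sonications and in the islands of 12 cycles. For class A, chromosome 10 had 0% in KO domains at 12 cycles with both antibodies, against 8.24% (N18) and 6.97% (3A6) in WT. It stayed in when chromosomes of changed island coverage were left out. The part of such chromosome-wide shifts in either class was not tested.

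**Figure D4:**
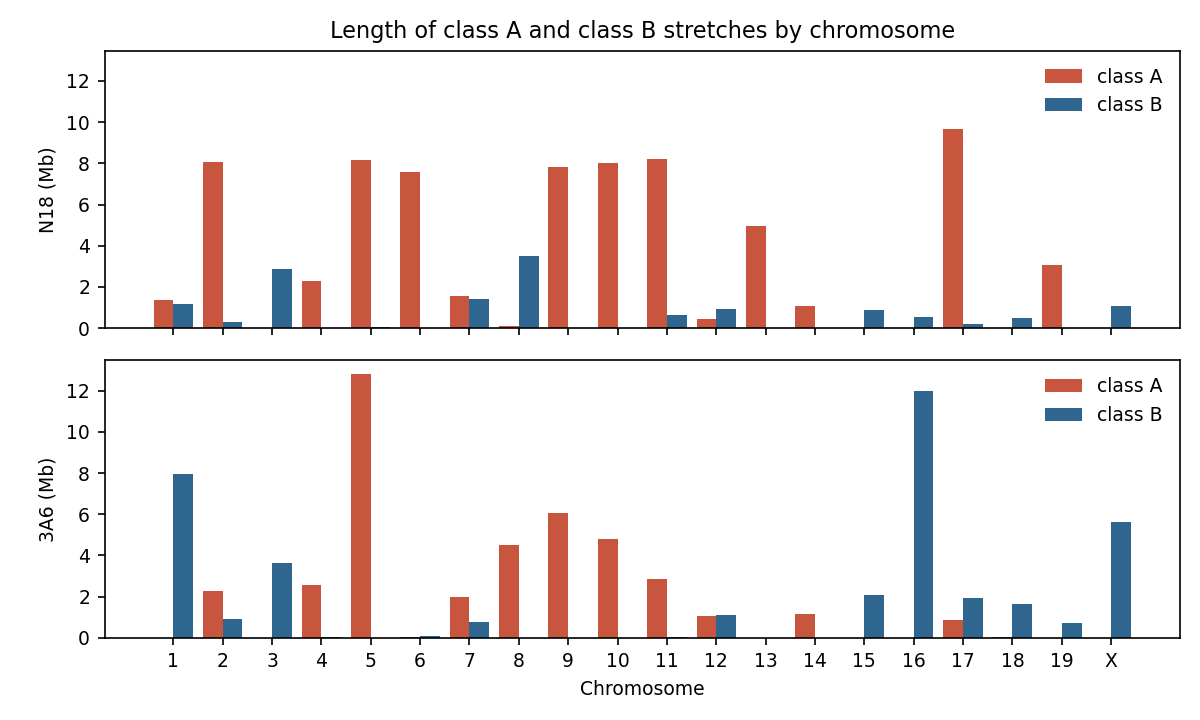
Bars give the length (y axis, Mb) of class A and class B on each chromosome (x axis), for N18 above and 3A6 below. Class A of N18 lies on 16 chromosomes, the tallest class A bar of 3A6 is chromosome 5 (12.8 Mb), and the tallest class B bar is chromosome 16 with 3A6 (12.0 Mb).

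Stretches varied widely in length within each class. The median was 330 kb in N18 class A and 204 kb in N18 class B, 132 kb in 3A6 class A and 336 kb in 3A6 class B. At least 1 Mb was reached by 17, 2, 9 and 6 stretches in that order. Just inside the threshold, at 11 kb, lay 10, 4, 8 and 1 stretches, and since all domain edges fell on the 11-kb grid of the caller, none lay just below it. Many stretches were margins of domains rather than whole ones. A 12-cycle KO domain abutted 59 of 147 N18 class A stretches and 102 of 134 with 3A6, and a 30-cycle KO domain abutted 32 of 50 and 36 of 80 class B stretches. Neither excluded library had a domain next to 52 of 147 and 27 of 134 stretches of class A, and 14 of 50 and 36 of 80 of class B.

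SICER islands of the same libraries gave a reading of the stretches by another caller, but not on all chromosomes. In the 8 lamin A/C libraries islands covered at most 0.211% of chromosome 1, which held 20.6% of 3A6 class B, and at most 0.0702% of chromosome 7, so stretches there had next to no island reading. Islands covered 30.3% of N18 class A in WT and 16.4% in KO at 12 cycles, and 20.03% and 23.4% at 30 cycles. Coverage of 3A6 class A was 18.7% and 6.02% at 12 cycles, and 2.80% and 9.19% at 30 cycles. Pooled over their stretches, both followed the domains in direction, with a smaller difference at 30 cycles for N18. Some N18 class A stretches went the other way at 30 cycles. Islands of N18 covered 37.8% of chr13:53614001-56254000 in WT and 0% in KO, and 7.92% and 1.73% of chr10:59774001-61908000. Over the whole of chromosome 13 they covered 15.7% and 0.0449%. The 3 longest stretches of N18 class A rose as the pooled value did. In N18 class B islands covered 11.05% in WT and 24.6% in KO at 12 cycles, and 32.6% and 30.8% at 30 cycles. That last pair was close, and island reads per kb, which are not scaled to library size, were 12.9 in WT and 15.4 in KO, beside 3.64 and 5.15 over the genome. In 3A6 class B coverage was 7.52% and 16.3% at 12 cycles, and 17.4% and 9.35% at 30 cycles. Over the genome island coverage was 6.12% to 10.4% per lamin A/C library. These libraries chose the stretches, so the values are descriptions. Rebuilt from islands alone, the classes held 15.1 Mb (A) and 8.44 Mb (B) with N18, and 11.2 Mb and 12.2 Mb with 3A6.

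A minor part of each class was in the same class with both antibodies, though more than the other antibody's class held of the genome. Class A with both covered 6.06 Mb in 30 stretches, 8.37% of N18 class A and 14.8% of 3A6 class A, and class B with both covered 2.27 Mb in 13 stretches, 16.2% and 5.88% of the classes. Of the genome, 3A6 class A held 1.55% and N18 class A 2.74%, and 3A6 class B 1.46% and N18 class B 0.531%. Opposite classes met in 11 kb, at chr2:178178001-178189000, in class B with N18 and class A with 3A6. The antibodies shared inputs, so these overlaps are descriptions. The DNA shared in class A had a G+C content of 48.0%, lay 98.7% in 12-cycle LAP2alpha domains and 0.544% in 30-cycle lamin B1 domains, and held 112 genes. The DNA shared in class B had 41.5% G+C, lay 1.94% and 83.0% in those domains, and held 12 genes.

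Each class was also read over its whole length with the other antibody. Over the genome at 30 cycles, 3A6 had 68.8% in neither genotype's domains, 9.12% gained, 9.81% held in both and 12.2% lost. N18 had 79.4% in neither and 11.6% gained. With 3A6, 64.3% of N18 class A was also lost at 12 cycles, but 88.7% was in neither genotype's domains at 30 cycles and 11.3% was gained. With N18, 66.6% of 3A6 class A was gained at 30 cycles as well, but at 12 cycles 50.9% was held in both genotypes and 22.6% was lost. Of N18 class B, 75.1% was gained with 3A6 at 12 cycles, while at 30 cycles 54.4% was held in both genotypes and 20.6% lost. Of 3A6 class B, N18 domains of neither genotype held 77.3% at 12 cycles and 82.1% at 30 cycles. The 30-cycle share is near the 79.4% of the genome. N18 gained 22.5% of 3A6 class B and lost 0% of it at 12 cycles, beside 175 Mb gained of the 2639 Mb genome. At 30 cycles N18 gained 0.714% and lost 10.0%, beside 11.6% and 2.73% of the genome. The minor part that changed with N18 was thus mostly gained at 12 cycles and lost at 30 cycles, as with 3A6. This was not tested. Class A of N18 was thus mostly shared in its 12-cycle loss, and class A of 3A6 mostly in its 30-cycle gain. Such sharing was not particular to class A. At 12 cycles 3A6 domains held 50.3% (WT) and 9.49% (KO) of the rest of the N18 12-cycle loss, against 65.9% and 2.20% of class A. At 30 cycles N18 domains held 10.6% (WT) and 62.9% (KO) of the rest of the 3A6 12-cycle loss. Of 3A6 class A they held 25.3% and 88.4%.

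The longest stretch of class A with both antibodies, chr10:60907001-61908000 (1.00 Mb, 16 genes), held Col13a1, and LAP2alpha domains covered 100% of it at 12 cycles and 53.8% at 30 cycles, with no lamin B1 domain. The others were chr10:120626001-121297000 (671 kb), with the Ras effector gene Rassf3, and chr10:77110001-77759000 (649 kb, 22 genes), with the keratin-associated protein gene Krtap12-1. All 3 lay whole in 12-cycle LAP2alpha domains. On chromosome 10, where they lie, KO domains covered 0% at 12 cycles with both antibodies, against 8.24% in WT with N18 and 6.97% with 3A6. Their 12-cycle loss was thus part of a loss of calls over the whole chromosome. The longest of class B with both, chr7:58245001-58652000 (407 kb) and chr15:68332001-68706000 (374 kb), held 1 and 0 genes. The next, chr15:12793001-13134000 (341 kb), held Cdh6, which encodes a cadherin, an adhesion protein. All 3 touched 30-cycle lamin B1 domains, over 100%, 100% and 83.9% of their length. Islands of the Cdh6 stretch covered 33.1% in WT and 95.01% in KO with N18 at 12 cycles, and 97.1% and 62.2% at 30 cycles. With 3A6 they covered 48.1% and 88.0% at 12 cycles, and 90.9% and 0% at 30 cycles, so both callers gave the same directions there. They also did at chr15:68332001-68706000, whereas no island of any library touched chr7:58245001-58652000. In the 3 class A stretches islands followed the 12-cycle loss but not the 30-cycle gain. At 30 cycles islands of 3A6 covered 0% in both genotypes. Those of N18 covered 8.19% in WT and 2.70% in KO with Col13a1, 8.01% and 5.24% with Krtap12-1, and 0% in both with Rassf3.

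**Figure D5:**
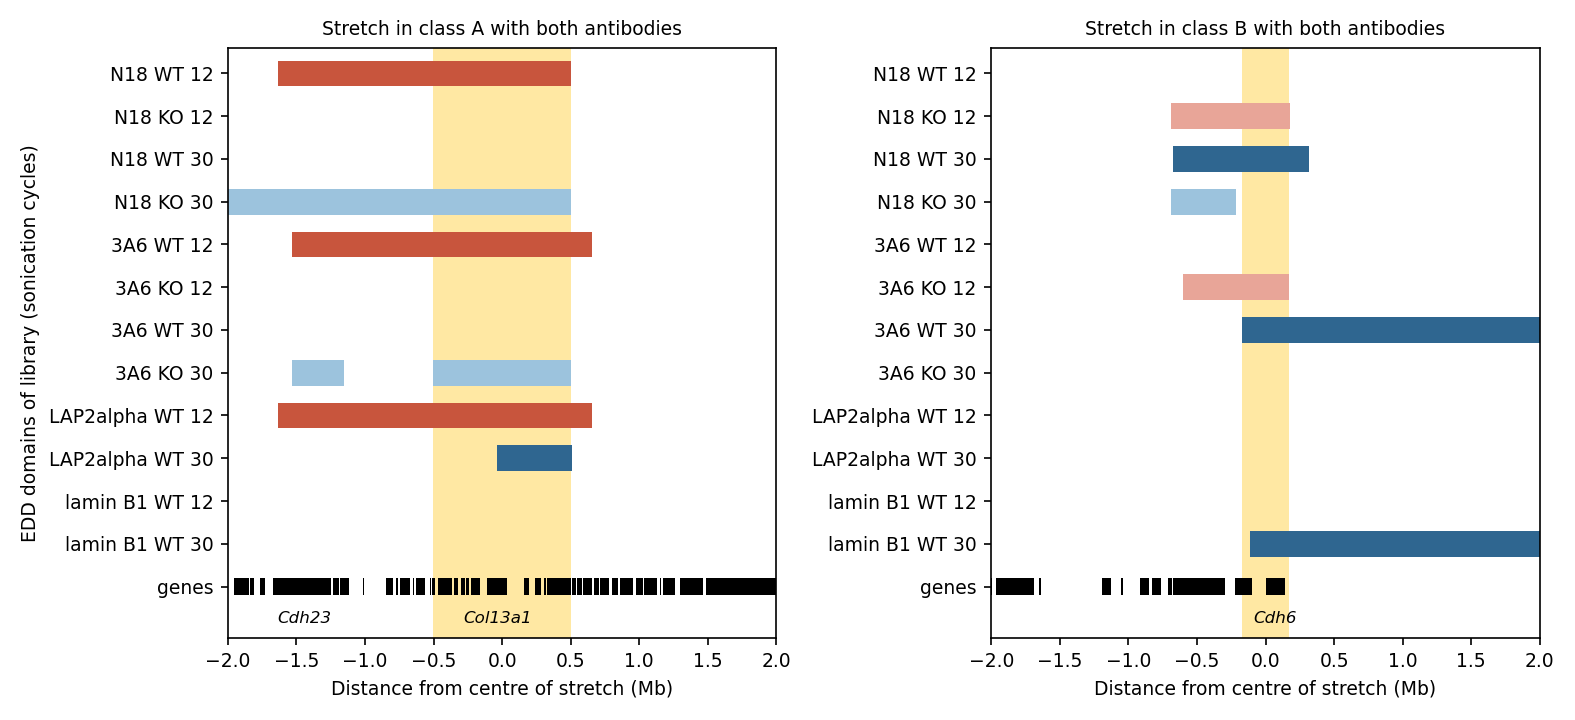
Bars show EDD domains of the 12 libraries (rows) and black bars protein-coding genes, by distance in Mb from the centre of the longest stretch of class A with both antibodies (left) and of the class B stretch with Cdh6 (right). The yellow band marks the stretch, which domains of WT at 12 cycles and KO at 30 cycles fill on the left, and those of KO at 12 cycles and WT at 30 cycles on the right.

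Lists of genes of the nuclear envelope and of the LAP2alpha pathway were short, and their counts are given beside the shares of all genes, 6.39% and 2.55% in class A and 0.234% and 0.892% in class B (N18, then 3A6). Of the 4 genes of lamins and the lamin B receptor, Lmnb2 alone lay in a class, N18 class A. In 3A6 class A lay 2 of 6 genes of SUN proteins and nesprins, the proteins that couple the nucleus to the cytoskeleton. These were Sun1 and Sun3, which is expressed mainly in testis. None of 8 genes of LEM-domain proteins and Banf1, their chromatin partner, lay in a class. Of 13 genes of E2F factors and the retinoblastoma family, the cell cycle regulators that LAP2alpha and lamin A act on, E2f8 alone lay in a class, N18 class A.

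Of 43 collagen genes, 3 lay in N18 class A (Col13a1, Col18a1 and Col7a1) and 4 in 3A6 class A (Col5a1, Col13a1, Col4a2 and Col4a1), or 6.98% and 9.30%, against 6.39% and 2.55% of all genes. Col9a1, a cartilage collagen gene, lay in 3A6 class B. Of 17 other fibroblast matrix genes, Pdgfra, the gene of a growth factor receptor of fibroblasts, lay in N18 class A. It was 76.7% inside the WT 12-cycle and KO 30-cycle domains of N18, and 3A6 domains covered it whole in WT at 12 cycles and nowhere else. Of 46 keratin genes, 11 lay in N18 class A (23.9%), all in one cluster on chromosome 11 with Krt19, Krt32 and Krt42. Of 46 genes of keratin-associated proteins of hair, 16 lay in 3A6 class B (34.8%), neighbours on chromosome 16 with Krtap15 and Krtap24-1, and Krtap12-1 lay in class A of both antibodies. Such clusters fall in or out of a stretch together and count as one event each.

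Of 1087 olfactory receptor genes, 51 lay in 3A6 class B (4.69%, against 0.892% of all genes) and 0 in the other classes. Of 322 vomeronasal receptor genes, Vmn2r120 lay in class B of both antibodies and Vmn1r184 in N18 class B. These were 0.621% with N18 and 0.311% with 3A6, against 0.234% and 0.892% of all genes. Of 7 genes of contactin-associated proteins, neuronal adhesion molecules, Cntnap5b and Cntnap5c lay in 3A6 class B (28.6%, against 0.892% of all genes). Both lay whole in lamin B1 domains of both sonications. Of 23 cadherin genes, Cdh23 lay in class A of both antibodies, Cdh16 in N18 class A, Cdh26 in 3A6 class A and Cdh6 in class B of both. These were 8.70% in class A and 4.35% in class B with each antibody. Of all genes, 6.39% (N18) and 2.55% (3A6) lay in class A, and 0.234% and 0.892% in class B. Of 47 glutamate and GABA receptor genes, Grin3b lay in N18 class A (2.13%), Gabbr2 and Grm4 in 3A6 class A (4.26%) and Gabrr3 in 3A6 class B (2.13%).

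Class A held more of all protein-coding genes than class B, and the counts of widely expressed and metabolic families are to be read against those shares. Of 79 ribosomal protein genes, 8 lay in N18 class A (10.1%, against 6.39% of all genes) and 2 in 3A6 class A (2.53%, against 2.55%). Of 34 genes of Wnt ligands and receptors, 5 lay in N18 class A (14.7%), among them Wnt7a, Wnt3a and Wnt9a. Of 340 numbered zinc finger genes, 14 lay in N18 class A (4.12%) and 7 in 3A6 class A (2.06%), both below the share of all genes. Of 92 potassium channel genes, 7 lay in N18 class A (7.61%) and 2 in 3A6 class A (2.17%), near the shares of all genes. Class B held 0 of these 4 families. Of 91 cytochrome P450 genes, 3 lay in each class A (3.30%) and 2, Cyp2b9 and Cyp2a4, in N18 class B (2.20%, against 0.234% of all genes). No gene of 12 non-clustered protocadherins, 3 Csmd, 5 Tmem132, 4 teneurin, 41 beta-defensin or 39 Hox genes lay in a class. With few members in most lists, shares near the background say nothing about a family.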

How the data were processed

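Files of 12 of 24 samples were analysed, and 12 others (4 inputs and 8 histone-mark immunoprecipitations) are not analysed here. Per the submitters' processing notes and the study's methods, cutadapt trimming and Bowtie2 2.1.0 alignment (mm9) were followed by duplicate removal, and Picard brought each ChIP library down to the size of its input. The authors then called regions in single libraries. Each deposited EDD domain (11-kb bins, gap penalty 5, FDR 0.1) carries a score. Each deposited SICER 1.1 island (window 1000 bp, gap 3000 bp, FDR 0.01) carries a count of its ChIP reads, not scaled in any way. The downsampling and the calling against an input limit comparisons of read numbers, so the stretches rest on presence or absence of a domain.

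Domains were placed on a 1-kb grid of the mm9 assembly (20 chromosomes, gaps included), and the classes were built with Python 3.11.15, numpy 2.4.6 and pandas 2.3.3 after being checked on simulated domains. A gene of 22208 protein-coding genes was counted inside when at least 50% of its length was. Reads in islands were summed per library and do not give its sequencing depth, which was not analysed here. With 1 library per group, no p-value or interval between genotypes or sonications was computed. Named were the 3 longest stretches of each class and antibody and of the classes shared by both antibodies, the stretch in opposite classes, up to 4 genes of 24 lists or the 2 longest genes in each, and up to 3 members of each list. The members, lists and rules were chosen with earlier results of these data known. Alternatives were other length minima, extended edges, high-scoring domains, autosomes, SICER islands, the other sonication of LAP2alpha and lamin B1, genes by start site and, added after the data were seen, leaving out chromosomes with changed island coverage.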

Additional observations from a re-analysis of the deposited data

Results flagged for a closer look

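Opposite classes of the antibodies met in 11 kb, the single bin chr2:178178001-178189000, which was flagged because N18 and 3A6 moved in opposite directions there at both sonications. N18 domains covered it in KO at 12 cycles and WT at 30 cycles, and 3A6 domains in WT at 12 cycles and KO at 30 cycles. Both libraries of LAP2alpha and both of lamin B1 covered it whole. The difference was not tested.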

How the results depend on the processing

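Of 132 values of 18 results under 10 alternatives, 104 stayed within 1.5 times the value given (sizes, G+C, gene density and shares that changed sides) or within a 95% Wilson interval over stretches (LAP2alpha and lamin B1 shares), 28 moved and 0 changed sign. A change of sign was possible only for the class A minus class B differences. The interval treats neighbouring stretches as independent and served only to sort the values. The cause was not tested for any of them. No length minimum, a minimum of 100 kb, domain edges extended by 11 kb, autosomes alone and genes by start site moved none of the results they applied to. Dropping the length minimum could move nothing, since all domain edges fell on the 11-kb grid. SICER islands moved most. They gave 15.1 and 8.44 Mb of N18 classes A and B, 11.2 and 12.2 Mb of 3A6 classes A and B, 0.433 Mb of class A and 0.644 Mb of class B with both antibodies. With islands, the class A minus class B difference was 2.87 percentage points of G+C and 7.68 genes per Mb for N18 (7.13 and 15.9 with domains). In LAP2alpha it was 23.1 points for N18 and 45.6 for 3A6, and in lamin B1 -26.9 and -43.2. The share of the 12-cycle loss that was gained at 30 cycles was 10.8% with N18 and 6.73% with 3A6, and that of the 3A6 gain that was lost 9.97%. Domains scoring at or above the median gave 8.17 Mb of N18 class B, 3.00 and 0.154 Mb of classes A and B with both antibodies, and LAP2alpha differences of 79.1 (N18) and 93.5 points (3A6). LAP2alpha at 30 cycles gave 15.1 and 36.7 points (75.3 and 88.3 at 12 cycles), and lamin B1 at 12 cycles -43.1 and -43.5 (-86.3 and -85.5 at 30 cycles). Without chromosomes of changed island coverage, N18 class B was 9.05 Mb, 3A6 class B 10.8 Mb and class B with both 0.451 Mb, and the 3A6 lamin B1 difference -88.7. No paired analysis was possible because each group was 1 library and no result came from a test. The effect of depth on the calls could not be measured from region lists.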
